A study of Mus musculus with 2 samples.

Results

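Binding of Tbx3 at Pou5f1 was described from 1 chromatin immunoprecipitation sequencing (ChIP-seq) library and 1 input library of mouse embryonic stem cells. The locus was taken as 50 kb of chromosome 17 around the gene, whose start lies near position 35114100 of mm8 on the plus strand. Places are given below as distances in bp from that position, negative upstream, and the 50 kb runs from -24100 to 25900. It holds 1 of the 1147 regions of the genome that a scan found enriched in the ChIP. That region, from -599 to 200 with its fullest window at chr17:35113701-35114000, is called the site below. The site, and a 2501 bp stretch just upstream of it, from -3100 to -600, had been chosen by the tag counts of these same libraries. All values at both, those of the scan included, therefore describe these tags and are not independent evidence of binding. Both libraries came from untreated cells of the D3 and R1 lines, which are established embryonic stem cell lines, grown on inactivated feeder fibroblasts (MEFs) with the cytokine LIF, and the labels do not tie a line to a library. The ChIP library is DNA recovered from sonicated nuclei with a Tbx3 antibody, and the input is DNA sequenced without precipitation. The comparison is thus with input and not with a second antibody, it has no replicate, and how much DNA the feeder cells gave is not stated.

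Pou5f1 encodes Oct4, a POU-family transcription factor that early embryos and embryonic stem cells need to stay pluripotent. Its transcription is driven by a short GC-rich promoter without a TATA box and by a proximal and a distal enhancer further upstream, of which the distal one is the more active in embryonic stem cells. Tbx3 is a T-box transcription factor of the pluripotency network, and T-box proteins bind DNA at variants of the half-site AGGTGTGA. The RefSeq table for GRCm38.p6 lists Pou5f1 (gene ID 18999, spanning 4746 bp there) between the long non-coding RNA Gm32362, with the class I histocompatibility gene H2-Q10 beyond it, and Tcf19, followed by Cchcr1. The order comes from that build and was not placed on the mm8 positions of the tags.

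The bases just before the start are shown because the site lies over them: it runs from 599 bp before to 200 bp after the start in mm8 positions. The sequence is the 250 bases before the first of the 2 RefSeq starts of Pou5f1 (GRCm38.p6, chr17:35505782-35506031, plus strand), with motif matches in capitals, and it was not lined up with single tags.
Pou5f1 promoter: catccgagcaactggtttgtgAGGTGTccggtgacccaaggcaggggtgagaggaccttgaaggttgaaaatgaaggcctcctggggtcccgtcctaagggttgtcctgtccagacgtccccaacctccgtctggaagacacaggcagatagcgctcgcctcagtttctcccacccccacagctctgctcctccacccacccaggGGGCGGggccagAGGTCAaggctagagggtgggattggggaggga
Of these bases 62% were G or C. The whole T-box half-site AGGTGTGA was searched on both strands of these 250 bases only and had 0 matches. The rest of the site, which begins at -599 in mm8 positions, was not searched. Of the 32851 RefSeq windows of the same 250 bases, 1.12% hold the whole half-site. Its first 6 letters, AGGTGT, matched once, on the plus strand from -229 to -224, as they do at least once in 11.8% of the windows. Positions of matches count from the first RefSeq start in GRCm38.p6 and not from the mm8 position used for tags. A match therefore cannot be placed within the steps of tags given below. A GC box, GGGCGG, lay at -45 to -40 (32.7% of windows hold one) and a nuclear receptor half-site, AGGTCA, at -33 to -28 (14.0%). None of the 3 matches overlapped another. Each match is a run of letters and no measure of binding.

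Tbx3 ChIP tags were concentrated in the 800 bp of the site, while the input had almost none there. One tag was kept for each position and strand, tags were moved 62 bp towards the middle of their fragment, and input was multiplied by 0.689, the ratio of the libraries' collapsed totals (6881110 ChIP and 9982870 input tags on the 20 chromosomes compared). The site held 82 ChIP tags against 2 input tags, 1.38 after scaling. The ChIP to input ratio was 59.5, and its 95% exact interval of 15.9 to 499 is wide because only 2 input tags stand below it; with both ends of the site 100 bp farther out the ratio was 20.8. Per length, the ChIP density was 102 tags per kb (81.5 to 127), and the scaled input density was 1.72 per kb. The site makes up 1.60% of the interval and held 32.8% of its 250 ChIP tags (95% exact binomial interval 27.0% to 39.0%) but 0.669% of its 299 input tags (0.0811% to 2.40%). These intervals cover counting error only. A bulk library cannot tell a site held firmly in few cells from one held loosely in many.

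**Figure D1:**
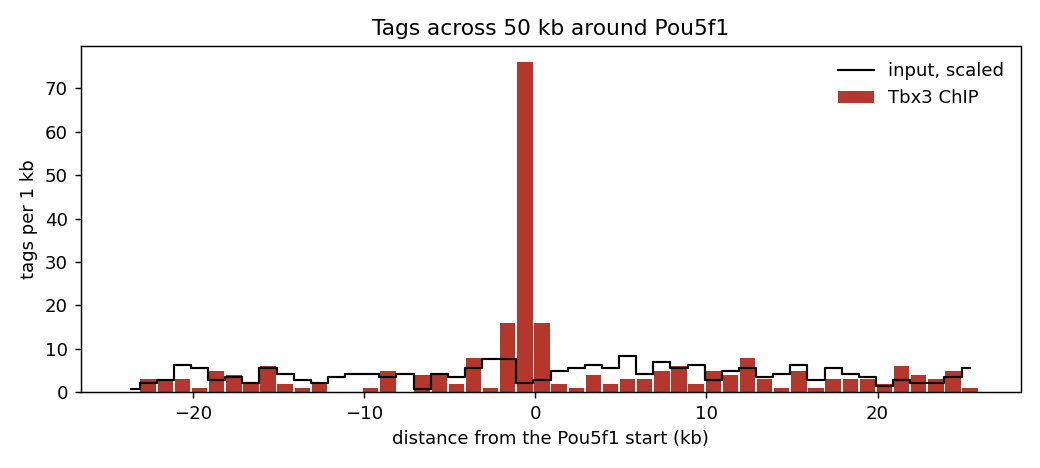
Tags per 1 kb (vertical axis) by distance from the Pou5f1 start in kb (horizontal axis), with red bars for the Tbx3 ChIP and a black line for scaled input. One bin, just upstream of the start, reaches 76 ChIP tags, and both bins beside it hold 16.

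Within the site, the tags rose and fell over a short distance upstream of the start. In consecutive steps of 100 bp from -599 to 200, the ChIP library had 3, 5, 20, 23, 18, 7, 5 and 1 tags. Input had 1 tag in the step from -399 to -300, 1 in the step from -99 to 0 and 0 in the others. The fullest step thus lay at -299 to -200, the median moved tag lay at -261 and the middle 80% of the tags spanned 326.9 bp, from -384.1 to -57.20. The fullest part of the site was therefore upstream of the start and not over it: only 6 of the 82 tags lay beyond the start.

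**Figure D2:**
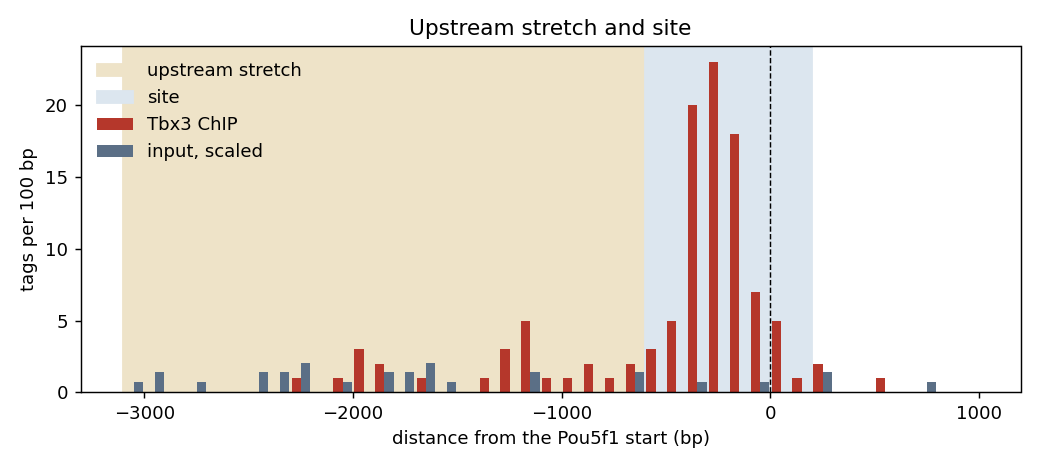
Tags per 100 bp (vertical axis) by distance from the Pou5f1 start in bp (horizontal axis), red for Tbx3 ChIP and blue-grey for scaled input; shading marks the upstream stretch and the site, and the dashed line the start. The 3 fullest ChIP steps, with 20, 23 and 18 tags, lie between -399 and -100.

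The scan values that picked the site were as follows. The scan set the ChIP tags of each 300 bp window against a local rate by an exact Poisson test, one-sided, and called windows whose Benjamini-Hochberg adjusted p was below 0.05. The local rate was the highest of 4 values, namely scaled input averaged over 1, 5 and 10 kb around the window and the ChIP average over the genome. Of 20081495 windows over the genome, 2428 were called (0.0121%). Of the 439 windows with a tag inside the 50 kb, 6 were called, all of them in the site, and nothing is read from that share because the same counts picked the locus. The window with the smallest p, from -399 to -100, held 61 ChIP tags (95% exact Poisson interval 46.7 to 78.4) and 1 input tag against a local rate of 1.54. Its enrichment was 39.7 (30.4 to 51.0, the local rate taken as fixed), with an adjusted p of 1.26e-67. Just inside the threshold was the window from -99 to 200, with 13 tags, an enrichment of 8.35 and an adjusted p of 2.21e-04. Just outside was the window from -699 to -400, with 10 tags, an enrichment of 6.26 and an adjusted p of 0.0550. The enrichment was 25.5 in windows of 600 bp and 71.5 against the ChIP average over the genome alone. The test compares 2 libraries and carries no information on the spread between cultures.

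Tags of the 2 strands were shifted against each other at the site, as 5′ ends from both ends of short fragments are. There were 44 plus-strand and 39 minus-strand 5′ ends, so 53.0% were on the plus strand (41.7% to 64.1%). The median plus-strand end lay at -322.0 and the median minus-strand end at -198.0, an offset of 124.0 bp. Each strand had 2 places of most ends. On the plus strand these were -399 to -350, with 12 ends per 50 bp, and -249 to -200, with 7. On the minus strand they were -249 to -200, with 7, and -99 to -50, with 8. The ends from -299 to -250 numbered 4 on either strand, so the dip between the 2 plus-strand places rests on few tags. Collapsing before deposit removes tags that share a position and strand. The fullest 100 bp of the plus strand, from -423 to -324, had ends at 20 of its 100 positions, and that of the minus strand, from -293 to -194, at 13.

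**Figure D3:**
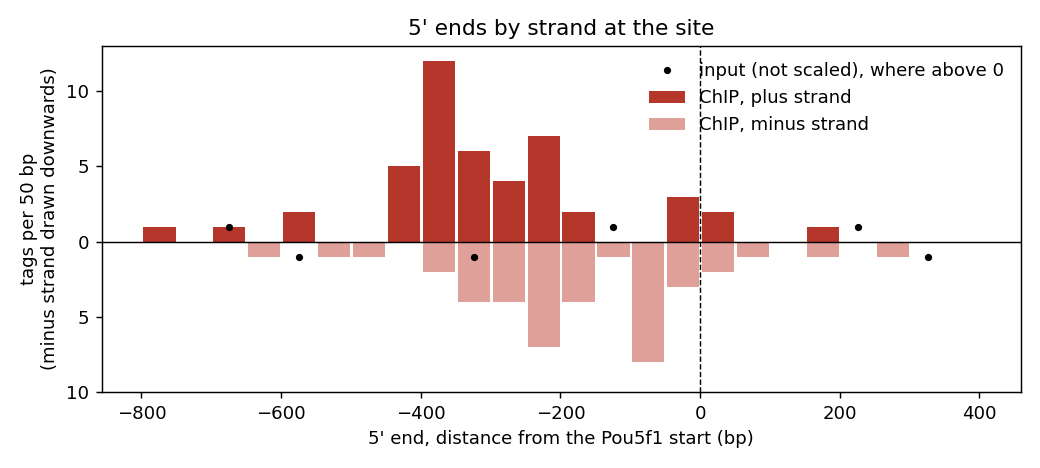
Number of 5′ ends per 50 bp, plus strand upwards and minus strand downwards (vertical axis), by distance from the Pou5f1 start in bp (horizontal axis), not moved; black dots are unscaled input ends where there are any. Plus-strand ends are most frequent at -399 to -350 (12) and minus-strand ends at -99 to -50 (8).

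The upstream stretch, where enhancers of Pou5f1 lie, had as many ChIP as unscaled input tags. It held 24 ChIP tags (95% exact Poisson interval 15.4 to 35.7) and 24 input tags, 16.5 after scaling, a ratio of 1.45 with an interval of 0.789 to 2.67 that includes 1. Its ChIP density of 9.60 tags per kb compares with 102 in the site and 3.08 in the rest of the 50 kb. Scaled input was also denser in the stretch, at 6.61 tags per kb against 1.72 in the site and 4.03 in the rest. Of the 23 windows of the stretch with a tag in either library, the scan called 0, and the smallest adjusted p it gave there was 0.151. In the exact Poisson test, 4 of these overlapping windows had an unadjusted p under 0.05. The share of windows over the genome under that value was not counted, so nothing is read from this number. Since the stretch was picked from the same tags, these values only describe what the scan returned. The edges of the enhancers were not analysed here, so the values below are given by distance from the start.

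ChIP tags were unevenly spread along the stretch. In the 1000 bp farthest from the gene, from -3099 to -2100, there was 1 ChIP tag against 11 input tags, 7.58 after scaling, a ratio of 0.132 (0.00306 to 0.907). In the 1500 bp next to the site, from -2099 to -600, there were 23 ChIP and 13 input tags, 8.96 after scaling, a ratio of 2.57 (1.25 to 5.52). This division was made after the tags had been seen, and the intervals make no allowance for that. By steps of 500 bp from the far end, the ChIP counts were 0, 1, 7, 9 and 7 and the input counts were 4, 7, 8, 3 and 2. The 0 tags in the first step have a 95% exact Poisson upper limit of 3.69. ChIP counts were thus low in the far steps and higher nearer the gene. Input counts were highest in the middle step, with 8, and lowest next to the gene, with 3 and 2.

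The fullest place of the stretch lay near -1200. Between -1299 and -1100, consecutive steps of 100 bp held 3 and 5 ChIP tags, against 0 and 2 input tags. The windows from -1399 to -1100 and from -1299 to -1000 held 9 ChIP tags each, an enrichment of 5.98 over a local rate of 1.5, and these are the windows of the adjusted p of 0.151. Against the genome-wide ChIP rate of 0.854 alone, which ignores the input, 3 windows between -1399 and -900 would be called, with an adjusted p of 0.00124 for both of 9 tags and 0.0472 for that of 7 (exact Poisson test); 0.0660% of all windows are called by that rule. A smaller group of tags lay between -2099 and -1800, where the window held 6 ChIP and 3 input tags, an enrichment of 1.99 and an adjusted p of 1. The 24 unmoved 5′ ends of the stretch were 17 plus-strand and 7 minus-strand ends, and this division was not tested against that of the site. Their medians lay at -1223 and -1212. The stretch is longer than the site and holds separate groups of tags, so these medians give no offset comparable to the site's. From -1400 to -900, 9 plus-strand and 3 minus-strand ends had medians of -1169 and -1126, closer together than in the site. Around the smaller group farther from the gene, 4 plus-strand and 2 minus-strand ends had medians of -2021 and -1810, farther apart than in the site. With so few ends, nothing is read from either. The window of 10 tags that missed the threshold, given above, ran across the border of the stretch and the site, at a local rate of 1.60. Its steps of 100 bp held 2 tags in the stretch and 3 and 5 in the site.

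Across the remaining 46700 bp of the interval, the ChIP lay somewhat below scaled input. There were 144 ChIP and 273 input tags, 188 after scaling, a ratio of 0.765 (0.621 to 0.940). The part upstream of the stretch had 56 and 106 tags, a ratio of 0.766 (0.544 to 1.07). The 4700 bp after the site, about the length of the gene, had 12 ChIP and 35 input tags, a ratio of 0.497 (0.235 to 0.981), and the 21000 bp beyond that had 76 and 132 tags, a ratio of 0.835 (0.621 to 1.12). The intervals of the 3 parts overlap. In the 4700 bp after the site no 100 bp step had more than 2 ChIP tags, although RefSeq lists a second Pou5f1 start inside the gene. Of the 403 windows with a tag in this remainder, 0 were called, 4 had an unadjusted p under 0.05 in the exact Poisson test and 0.0191 was the smallest. Nothing is read from the 4 either, as the share over the genome was not counted. In the 45 bins of 1 kb that touch neither the stretch nor the site, ChIP counts ran from 0 to 8 with a median of 3, and 4 bins were at 0; input ran from 1 to 12 with a median of 6.

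The whole 50 kb, site included, had a ratio of 1.21 (1.02 to 1.44), at the 83.4th percentile of the 50186 bins of 50 kb over the genome with enough input, whose median was 1.03. The remainder's 0.765 would stand at the 7.92th percentile. In 100 kb around the same middle the ratio was 0.964, at the 34.5th percentile of bins of that size. The place of the interval among other bins thus rests on the 800 bp of the site and on how much surrounding DNA is counted with it. The interval had 1 repeated input tag, so it is not a place where repeated input tags pile up. Its 0 repeated ChIP tags carry no information, because the ChIP list was already free of repeats.

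Among the regions called over the genome, the Pou5f1 site was one of the strongest. Leaving aside regions with 10 or more input tags in the window of smallest p, 1094 regions remained, with a median of 11.0 ChIP tags and a median enrichment of 9.37. The Pou5f1 site was 6th of these by ChIP tags and 9th by enrichment (15th with windows of 200 bp), and 7th of all 1147 by adjusted p. At 800 bp it was wider than most: the median width was 400 bp and only 4 of the 1094 were wider. The regions closest to it in enrichment, named below, were 600 to 700 bp wide. Width is the span of merged called windows and was not compared at equal tag counts. Chromosome 17 carried 41 regions, and the next by enrichment, chr17:24538801-24539300, stood at 18.7 with 16 tags. The nearest region on the lower side, chr17:34127401-34127800, lay 985700 bp away with 8 tags and an enrichment of 9.37 (4.05 to 18.5). The nearest on the higher side, chr17:35281601-35282100, lay 167300 bp away with 20 tags and an enrichment of 15.2 (9.28 to 23.5).

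**Figure D4:**
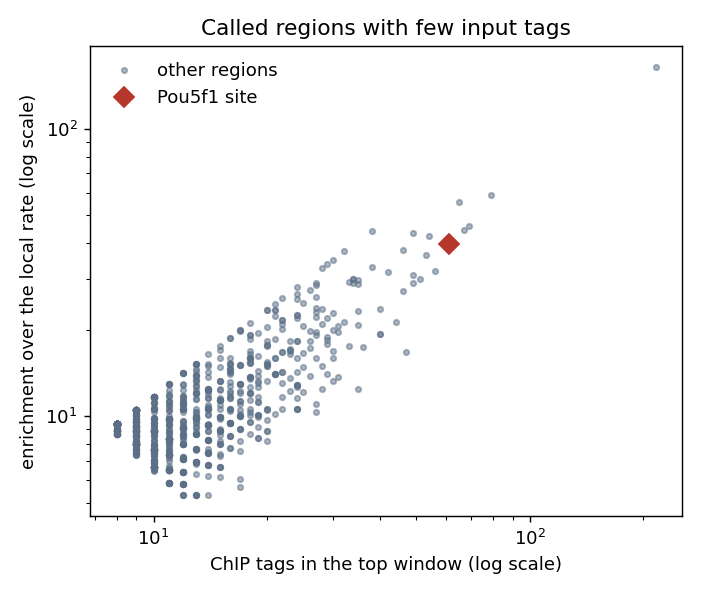
Enrichment over the local rate (vertical log axis) against ChIP tags in the window of smallest p (horizontal log axis) for the 1094 called regions with fewer than 10 input tags there. The Pou5f1 site (red diamond, 61 tags, 39.7-fold) lies among the few regions at the upper right, below the region of most tags.

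The regions closest to the Pou5f1 site in enrichment could not be ranked against it. Next above were chromosome 6 from 97013801 to 97014400, with 54 tags and 42.5-fold (32.0 to 55.5), and chromosome 2 from 159109701 to 159110400, with 49 tags and 43.4-fold (32.1 to 57.4). Next below were chromosome 4 from 57376501 to 57377100, with 46 tags and 37.8-fold (27.7 to 50.4), and chromosome 9 from 123566101 to 123566700, with 32 tags and 37.5-fold (25.6 to 52.9). All 4 intervals overlap that of the Pou5f1 site. Their strand offsets, read within 200 bp of the window, were 132.5, 115.0, 153.5 and 178.0 bp, against 121.0 bp for the Pou5f1 site. Over the 18 regions with few input tags among the 20 of smallest adjusted p, the offset ran from 29.00 to 173.5 bp with a median of 140.75 bp. The Pou5f1 site is among these 18, so its place inside that range was given in advance.

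The 2500 bp on either side of the site were set beside the same flanks of the other 17 of these 18 strong regions. After leaving out 2 flanks that hold another called region, 32 flanks of other regions remained. They held 2 to 17 ChIP tags with a median of 7, and their ratio to scaled input ran from 0.264 to 2.54 with a median of 0.698. In 10 of the 32 the ratio was above 1, and in 0 of them was the lower end of its interval above 1. The upstream flank of the Pou5f1 site is, to within a base, the stretch described above, with the same tags. That stretch was chosen by its tag counts, so its place among the flanks only describes these tags. This flank had the most ChIP tags of all 34, 24, but its input was also high, at 24 tags. Its ratio of 1.45 was below that of the flank at 2.54 and was shared by a flank with 8 tags in each library. The downstream flank held 6 ChIP and 16 input tags, a ratio of 0.544 (0.174 to 1.46). The intervals of the upstream and downstream flank overlap, and the difference between them was not tested.

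**Figure D5:**
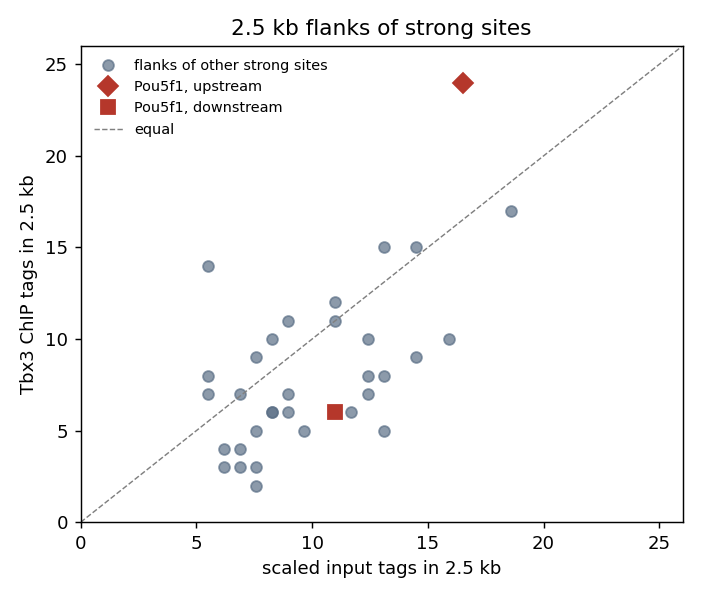
ChIP tags (vertical axis) against scaled input tags (horizontal axis) in the 2500 bp beside each strong region; blue-grey points are the 32 flanks of other regions, red symbols the flanks of the Pou5f1 site, and the dashed line marks equal values. The upstream Pou5f1 flank lies at 24 ChIP and 16.5 scaled input tags, the downstream one at 6 and 11.0.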

How the data were processed

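Each deposited file gives 1 line per mapped tag, with a position and strand and no other measure, as the authors mapped them; which aligner and filters they used is not given in the sources used here. Positions are in mm8, per the submitters' processing notes. The ChIP list was already free of repeats; input repeats were collapsed here. Listed positions were read as counting from 0, so single positions may be off by a base. The ChIP library held 6885523 tags and the input 10647721; chromosomes 1 to 19 and X were compared. Windows of 300 bp were placed every 100 bp; a covered length of 2418.59 Mb set the genome-wide rate, and touching called windows were merged. Ratio intervals are 95% exact conditional binomial intervals of the 2 counts. Bins of 50 kb needed at least 30% of the median input. Python 3.11.15, NumPy 2.4.6 and SciPy 1.17.1 were used, and the scan was tested on simulated data. The locus, its site and stretch and the tests were chosen with earlier results of these data known. Regions named beside the site were, by rule, the 2 next above and 2 next below it in enrichment among those with few input tags and the nearest on either side on chromosome 17; the next strongest on chromosome 17 was added after its value was seen. Genes at other mm8 positions were not analysed here.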

Additional observations from a re-analysis of the deposited data

How the results depend on the processing

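The site was called under each of the 9 alternative scans. Its enrichment, 39.7, was 25.5 with windows of 600 bp and 71.5 against the ChIP average over the genome alone, and between 35 and 42.4 under the 6 others run at the same threshold. Its rank by enrichment, 9, was 15 with windows of 200 bp and 6 to 13 otherwise. The number of regions, 1147, was 6580 against the ChIP average alone, 1774 where the local rate used input over 10 kb only, 748 when p had to pass 0.01, and 917 to 1313 otherwise; a lower rate or a stricter threshold is what those 3 settings consist of. In the upstream stretch 0 windows were called, except 3 against the ChIP average alone. Where 0 were called, the stretch's smallest adjusted p (exact Poisson test) ran from 0.0738 with windows of 200 bp to 0.519 with 5′ ends not moved. The stretch's ratio ran from 1.25 to 1.58, that of the remainder from 0.736 to 0.813, and that of the site from 20.8, with both ends moved out by 100 bp, to 63.4. The interval's percentile fell from 83.4 to 34.5 with bins of 100 kb. The offset was 97.77 bp from means. No paired analysis was possible because each group had 1 library. Depth limits the site's ratio, which rests on 2 input tags and has an interval of 15.9 to 499.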
